A study of Mus musculus with 128 samples.

Results

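The comparison described here set mouse livers taken 12 h after the start of a meal against livers taken 3 h after it, in animals that had drunk a glucose solution. It used 4 of the study's 26 groups of strain, drink and time, with 19 RNA-seq libraries: 10 at 3 h (5 C57BL6/J and 5 BALB/c) and 9 at 12 h (5 C57BL6/J and 4 BALB/c). They were selected by the drink and time given in their labels, and the 10 glucose libraries taken at 6 h were placed between the end points. All animals were male, wild type and 8 weeks old. They had been trained for 1 week to eat regular chow, with 10% of its calories from fat and 64.5% from carbohydrate, between 7 pm and 10 pm. By the test meal they had fasted for 21 h and had been without water from 4 pm, and at 7 pm received chow together with water holding 20% glucose. Other animals of the study received plain water, 20% sucrose or 20% fructose with the same chow, and only water-drinking animals were taken at 0 h. Hours after feeding and hours of the clock moved together: 3 h fell at 10 pm, when access to chow ended in the training schedule, 6 h at 1 am and 12 h at 7 am. Effects of the meal, of the time since it and of the hour of day therefore cannot be told apart. The labels do not say whether replicates were separate animals, so the p-values below cover the differences among libraries of a group, which may be technical.

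In the liver, a carbohydrate meal raises insulin and portal glucose. Insulin, through SREBP-1c and the withdrawal of FoxO1, turns on the enzymes that make fatty acids and turns off those that make glucose, while glucose itself acts through ChREBP. Hepatocytes also run a molecular clock, in which BMAL1 with CLOCK or NPAS2 drives the period, cryptochrome and REV-ERB genes that repress it in turn, and which is set by meal times. Secreted and cellular proteins made after a meal draw on chaperones of the endoplasmic reticulum, controlled by ATF6 and XBP1, and on cytosolic chaperones controlled by HSF1, a factor that also follows body temperature.

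Each library held 19623110 to 43118895 counts over the 29 glucose libraries, and levels are given below as CPM, counts scaled to a common library size with TMM factors. Albumin, the main secreted protein of hepatocytes, had a median of 53298 CPM at 3 h and 56987 at 12 h, and of 10 hepatocyte markers 1 rose (Fgb) and 1 fell (Hnf4a). Reads of other tissues were also present. The summed level of 55 skeletal muscle markers ranged from 47.7 to 864 CPM at 3 h (median 447), from 52.0 to 864 at 6 h (median 464) and from 57.9 to 141 at 12 h (median 91.1). Of them, 44 of 54 tested members fell and 2 rose, with a median log2 fold change of -3.76, and 40 of the 55 had no count in at least 1 library. Acta1, skeletal actin, had a median of 45.8 CPM at 3 h and 0.161 at 12 h. The summed muscle level differed at an unadjusted exact two-sided permutation p of 0.00964, which was 0.0683 after adjustment over 17 library measures. By the same test 3 other sums had this adjusted p. Adipocyte markers had means of 13.9 CPM at 3 h and 6.68 at 12 h (unadjusted p = 0.00828). Cholangiocyte markers went the other way, from 49.6 to 68.6 CPM (unadjusted p = 0.0161), and red blood cell markers had an unadjusted p of 0.0122. Red blood cell markers summed to 293 to 1647 CPM at 3 h (median 571) and 170.0 to 488 at 12 h (median 283), and 3 of 6 fell, the globin genes Hba-a1, Hba-a2 and Hbb-bs, also without library JC004. At 6 h, C57BL6/J replicate 3 held 2547 CPM of exocrine pancreas markers, BALB/c replicate 3 held 1646 CPM of kidney markers, and C57BL6/J replicate 5 held 312 CPM of adrenal markers and 14.1% mitochondrial counts. The part of these reads in the changes of other genes was tested only by adding the log muscle sum to the model, which called 3379 genes, 2913 of them among the 3969 called without it. Of the genes named below, Ppp1r3g, Ppp1r3c, Rpl18, Rps19, Igtp, Stat2 and Fga lost their calls in that fit, as did Hpd and Cyc1. In whole tissue, fewer cells of a type and less RNA per cell cannot be told apart.

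One library at 3 h stood apart and is named throughout: library JC004 (C57BL6/J, replicate 1). Its level of Igfbp1, a secreted binding protein that insulin represses, was 726 CPM against 1.01 to 4.35 in the other 4 libraries of its group, and Pck1 was 730.3 CPM against 36.1 to 117.8. Genes of stress and inflammation stood out too, chosen here after their values were seen: Egr1 had 549.8 CPM against 1.82 to 3.08, Cxcl1 587 against 1.76 to 5.85, and Junb 348 against 7.30 to 8.45. Neutrophil markers summed to 45.4 CPM, the highest of the 29 libraries. Its muscle markers, at 48.3 CPM, were as low as those of BALB/c replicate 1 at 3 h (47.7) and BALB/c replicate 4 at 6 h (52.0). Counts and most called genes are therefore given with library JC004 and also without it, as values or as whether the call held.

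The libraries were placed on an axis on which 0 is the 3 h mean and 1 the 12 h mean of the strain, using the genes called between those times in a fit without the library being placed (for 3 h and 12 h). The 3 h libraries lay between -0.038 and 0.458 (median 0.040), the 6 h libraries between -0.010 and 0.462 (median 0.096) and the 12 h libraries between 0.837 and 1.03 (median 0.913). Every 12 h library lay above all others, and the 6 h libraries overlapped the 3 h libraries over most of their range. The highest 3 h positions belonged to BALB/c replicate 1 (0.458) and library JC004 (0.298), and the highest 6 h position to BALB/c replicate 4 (0.462), the libraries with the lowest muscle levels. On an axis without the marker genes and limited to genes of at least 5 CPM, chosen after seeing the data, the ranges were -0.002 to 0.144 (median 0.065) at 3 h, 0.120 to 0.397 (median 0.235) at 6 h and 0.858 to 1.04 (median 0.897) at 12 h.

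**Figure D1:**
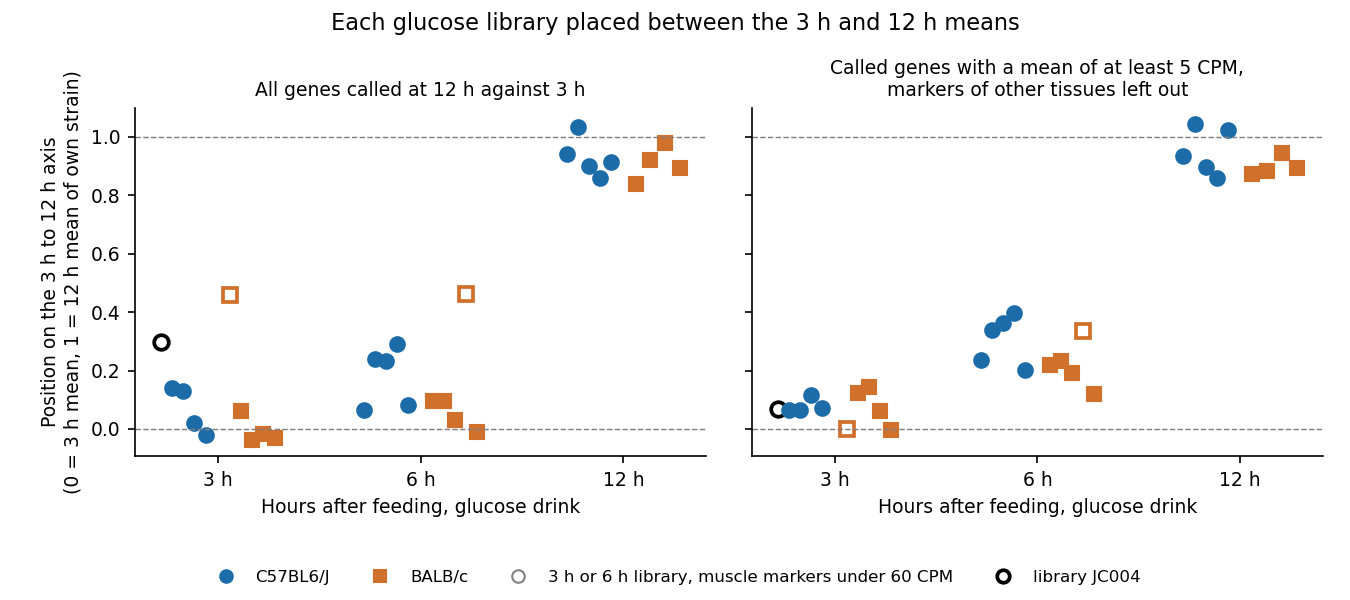
Position of each glucose library between the 3 h mean (0) and the 12 h mean (1) of its strain on the axis of called genes, by hours after feeding. Points are libraries, open markers are 3 h and 6 h libraries with muscle markers under 60 CPM, and library JC004 is black; the 9 libraries at 12 h lie at 0.837 or above and the 6 h libraries at 0.462 or below.

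Of 15486 genes tested with edgeR, 3969 (25.6%) differed between 12 h and 3 h at an adjusted p under 0.05: 1908 (12.3%) were higher at 12 h and 2061 (13.3%) lower. A change of at least 2-fold was reached by 1082 genes (6.99%), 517 higher and 565 lower. Without library JC004, 3799 of 15419 genes (24.6%) passed, 1923 higher (12.5%) and 1876 lower (12.2%), and 3577 genes were called in the same direction both ways. The levels of all 12 h libraries lay above those of all 3 h libraries for 286 genes (1.85%) and below them for 323 genes (2.09%); these were 320 (2.07%) and 362 (2.34%) without library JC004. The median log2 fold change over all genes tested was 0.00, so that list medians can be read against 0. The genes described next belong to 26 lists of liver functions with 442 tested entries, of which 48 rose and 140 fell; without library JC004 52 rose and 121 fell. Log2 fold changes are those of 12 h over 3 h unless another pair is named, with the standard error of the model.

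**Figure D2:**
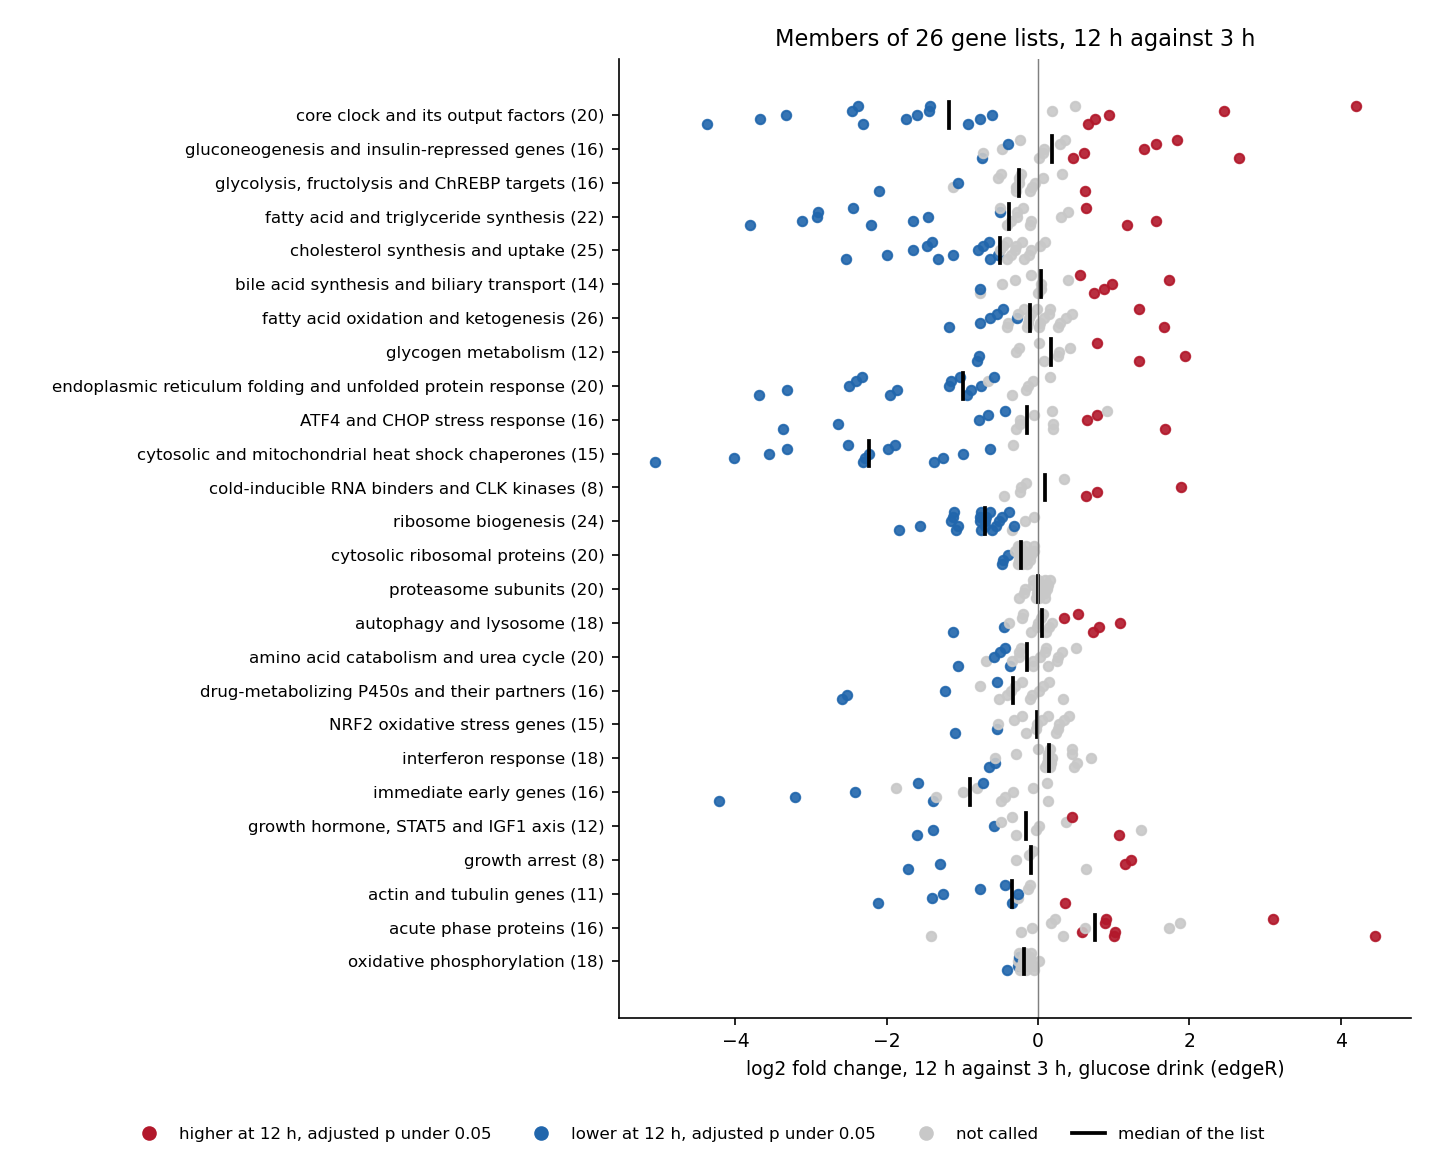
Log2 fold change at 12 h over 3 h of each tested member of the 26 gene lists, one line per list. Red points were called higher, blue points lower and grey points neither, and the black bar is the list's median, which runs from -2.23 for the heat shock chaperones to 0.75 for the acute phase proteins.

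Most clock genes differed between 12 h and 3 h. Of 20 tested clock and clock output genes, 5 rose and 13 fell, with a median log2 fold change of -1.18; without library JC004 the counts were the same and the median was -1.07. Per2, the period repressor of the core loop, ranged from 109 to 389 CPM at 3 h (median 169), from 89.0 to 208 at 6 h (median 139) and from 6.49 to 13.0 at 12 h (median 9.14). All 12 h libraries lay below all 3 h and 6 h libraries. Per2 differed by -4.37 ± 0.25 in log2 units (SE, edgeR adjusted p = 9.1e-14), and -4.43 without library JC004 (adjusted p = 1.33e-13). Per3, its relative, fell in the same way, with medians of 27.0, 19.1 and 2.39 CPM and a log2 fold change of -3.67 ± 0.27 (SE, edgeR adjusted p = 2.5e-11; -3.77 and 7.71e-12 without library JC004). Dbp, a PAR-domain output factor, was low throughout, at 1.60 to 5.71 CPM at 3 h and 0.372 to 0.875 at 12 h, and fell with a log2 fold change of -2.31 ± 0.28 (SE, edgeR adjusted p = 1.41e-07; -2.38 and 1.16e-07 without library JC004).

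The activating side of the loop moved the other way. Npas2, a partner of BMAL1, ranged from 0.0419 to 2.34 CPM at 3 h (median 0.712), from 0.593 to 15.5 at 6 h (median 5.11) and from 6.68 to 15.1 at 12 h (median 12.2). Each 12 h library exceeded each 3 h library, while 6 h libraries spread over both ranges. Npas2 differed by 4.20 ± 0.47 in log2 units (SE, edgeR adjusted p = 6.05e-08), and 4.23 without library JC004 (adjusted p = 2.15e-07). Arntl, which encodes BMAL1, rose less: 9.81 to 26.1 CPM at 3 h and 27.7 to 42.6 at 12 h without overlap, with a log2 fold change of 0.93 ± 0.14 (SE, edgeR adjusted p = 7.53e-06; 0.95 and 1.19e-05 without library JC004). Nr1d1, the REV-ERBα repressor, ranged from 1.56 to 5.06 CPM at 3 h (median 1.98), from 0.947 to 2.81 at 6 h (median 1.53) and from 8.47 to 23.8 at 12 h (median 12.4). Its median was lowest at 6 h, and its 12 h levels stood above all others. At 12 h over 3 h it rose by 2.46 ± 0.25 (SE, edgeR adjusted p = 1.2e-08; 2.42 and 4.51e-08 without library JC004) on the log2 scale. Bhlhe40, a repressor of clock targets, fell from between 58.5 and 210.0 CPM to between 21.0 and 32.0 (-2.38 ± 0.21, edgeR adjusted p = 3.81e-10). The call of Bhlhe40 held without library JC004.

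**Figure D3:**
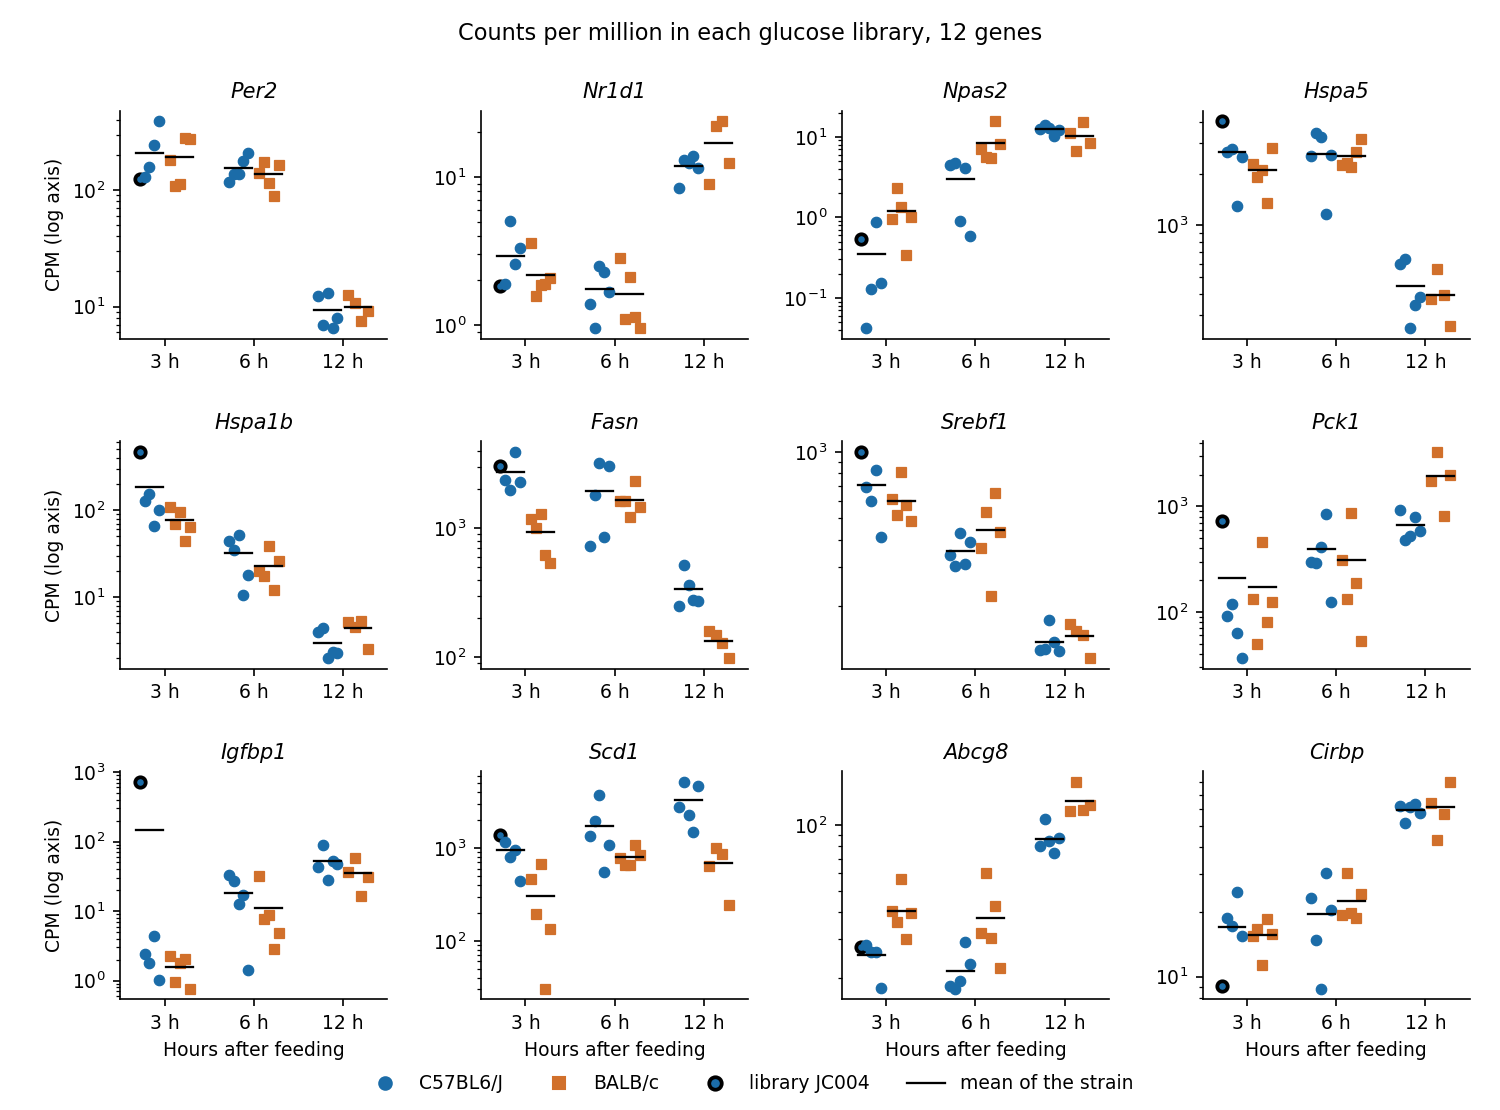
CPM of 12 genes in each glucose library at 3, 6 and 12 h, on log axes, one panel per gene, with each point a library and library JC004 in black. Per2, Hspa5, Hspa1b, Fasn and Srebf1 are lower in every 12 h library than in every 3 h library, Nr1d1, Npas2, Abcg8 and Cirbp are higher, and Pck1, Igfbp1 and Scd1 overlap.

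Several genes that insulin represses were higher at 12 h. Of 16 tested gluconeogenic and insulin-repressed genes, 6 rose and 2 fell, with a median log2 fold change of 0.19; without library JC004 7 rose and 2 fell, with a median of 0.25. Pck1, the cytosolic phosphoenolpyruvate carboxykinase of gluconeogenesis, ranged from 36.1 to 730.3 CPM at 3 h (median 104), from 52.9 to 874 at 6 h (median 295) and from 484 to 3319.7 at 12 h (median 807). The lowest 12 h library, at 484 CPM, lay above every 3 h library except library JC004. Pck1 differed by 2.65 ± 0.60 in log2 units (SE, edgeR adjusted p = 0.00155), and 3.31 without library JC004 (adjusted p = 3.65e-05). G6pc, the catalytic subunit of glucose-6-phosphatase, ranged from 35.9 to 252 CPM at 3 h (median 78.1), from 62.1 to 413 at 6 h (median 184) and from 89.1 to 669.5 at 12 h (median 244). The ranges overlapped, with the largest values at 12 h. At 12 h over 3 h it rose by 1.56 ± 0.36 (SE, edgeR adjusted p = 0.0016; 1.75 and 0.000395 without library JC004) on the log2 scale. Ppargc1a, a coactivator of gluconeogenic genes, rose from between 2.44 and 4.53 CPM to between 4.95 and 21.5 (1.40 ± 0.23, edgeR adjusted p = 2.39e-05). Insr, the insulin receptor, rose from between 73.1 and 104 CPM to between 112 and 172 (0.61 ± 0.10, edgeR adjusted p = 3.17e-05), with no overlap in either. Both calls held without library JC004. Igfbp1 depended on library JC004. Apart from it, the 3 h libraries held 0.767 to 4.35 CPM, the 6 h libraries 1.40 to 33.1 and the 12 h libraries 16.4 to 89.3, so that 12 h lay above 3 h without overlap. Igfbp1 differed by 0.29 ± 1.21 in log2 units (edgeR adjusted p = 0.895) with library JC004, and 4.48 ± 0.50 (adjusted p = 1.63e-07) without it.

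Among genes of glucose use, the share called was near the 25.6% of all genes. Of 16 tested glycolytic, fructolytic and ChREBP-responsive genes, 1 rose and 2 fell, with a median log2 fold change of -0.25; without library JC004 1 rose and 1 fell, with a median of -0.02. Pklr, liver pyruvate kinase, ranged from 28.2 to 350.5 CPM at 3 h and from 67.0 to 278 at 12 h, with a log2 fold change of -0.49 ± 0.38 (SE, edgeR adjusted p = 0.383; -0.36 and 0.547 without library JC004). Txnip, an arrestin that glucose induces, held 29.2 to 342 CPM at 3 h, the highest in library JC004, and 36.4 to 108 at 12 h, giving a log2 fold change of -0.53 ± 0.37 (SE, edgeR adjusted p = 0.322; -0.04 and 0.94 without library JC004). Klf10, a glucose-responsive repressor, was called lower only with library JC004, where it stood at 91.3 CPM: -1.06 ± 0.37 (SE, edgeR adjusted p = 0.0334; -0.84 and 0.0827 without library JC004). Its call was also lost on leaving out any 1 of 10 other libraries, with adjusted p up to 0.0698. Fgf21, a liver hormone, missed the threshold at -1.12 ± 0.44 (SE, edgeR adjusted p = 0.0566; -1.07 and 0.0847 without library JC004), but passed on leaving out C57BL6/J replicate 5 or BALB/c replicate 3 or 4 at 3 h, or C57BL6/J replicate 1 or BALB/c replicate 3 at 12 h, with values down to -1.48.

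More genes of fatty acid synthesis fell than rose, and the enzymes did not all move together. Of 22 tested genes of fatty acid and triglyceride synthesis, 3 rose and 9 fell, with a median log2 fold change of -0.38; without library JC004 3 rose and 8 fell, with a median of -0.29. Fasn, fatty acid synthase, ranged from 535 to 3941 CPM at 3 h (median 1644), from 728 to 3219 at 6 h (median 1621) and from 97.6 to 519.8 at 12 h (median 251). The 3 h and 6 h libraries shared one range and all 12 h libraries lay below it. Fasn differed by -2.91 ± 0.29 in log2 units (SE, edgeR adjusted p = 7.56e-09), and -2.84 without library JC004 (adjusted p = 2.08e-08). Srebf1, which encodes SREBP-1, ranged from 413 to 1004 CPM at 3 h (median 609), from 222 to 651 at 6 h (median 380.2) and from 116 to 173 at 12 h (median 138). Here the median was already lower at 6 h, and no 12 h library reached the range of either earlier time. Over the whole interval the log2 fold change came to -2.21 ± 0.17 (SE, edgeR adjusted p = 5.35e-11; -2.10 and 6.42e-11 without library JC004). Aacs, which makes acetoacetyl-CoA for lipid synthesis in the cytosol, had medians of 301, 204 and 23.5 CPM and a log2 fold change of -3.81 ± 0.27 (SE, edgeR adjusted p = 1.64e-11; -3.76 and 4.34e-11 without library JC004). Mid1ip1, an activator of acetyl-CoA carboxylase, fell from between 70.6 and 341 CPM to between 14.0 and 25.7 (-2.92 ± 0.23, edgeR adjusted p = 5.35e-11), and kept its call without library JC004. Scd1, the stearoyl-CoA desaturase, ranged from 30.5 to 1365 CPM at 3 h (median 571), from 556 to 3755 at 6 h (median 964) and from 242 to 5184 at 12 h (median 1495). The ranges overlapped over much of their length while the medians climbed. Scd1 differed by 1.56 ± 0.41 in log2 units (SE, edgeR adjusted p = 0.0054), and 1.66 without library JC004 (adjusted p = 0.00528). Elovl5, an elongase of polyunsaturated chains, and Me1, malic enzyme, both named after their values were seen, were the other 2 genes of the list that rose, with log2 fold changes of 1.18 and 0.63, also without library JC004.

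All called genes of cholesterol synthesis and uptake were lower at 12 h. Of 25 tested members, 0 rose and 12 fell, with a median log2 fold change of -0.50; without library JC004 0 rose and 10 fell, with a median of -0.51. Mvd, mevalonate diphosphate decarboxylase, ranged from 59.95 to 185 CPM at 3 h (median 94.4), from 51.2 to 120.0 at 6 h (median 75.1) and from 5.13 to 36.6 at 12 h (median 21.8). All 12 h libraries lay under the 3 h range, and the 6 h libraries mostly within it. Mvd differed by -2.54 ± 0.25 in log2 units (SE, edgeR adjusted p = 6.03e-09), and -2.61 without library JC004 (adjusted p = 5.1e-09). Insig1, which holds SREBP in the endoplasmic reticulum, fell from between 353 and 1282 CPM to between 51.4 and 366 (-1.998 ± 0.21, edgeR adjusted p = 1.9e-08), and its call held without library JC004. Hmgcs1, an early synthase of the pathway, ranged from 146 to 795 CPM at 3 h and from 71.6 to 573 at 12 h, and its log2 fold change of -0.50 ± 0.23 (SE, edgeR adjusted p = 0.104; -0.51 and 0.12 without library JC004) missed the threshold.

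Transporters that move sterols and bile salts into bile were higher at 12 h. Of 14 tested genes of bile acid synthesis and biliary transport, 5 rose and 1 fell, with a median log2 fold change of 0.04; without library JC004 the counts were the same and the median was 0.08. Abcg8, a component of the canalicular sterol transporter, ranged from 17.8 to 56.5 CPM at 3 h (median 29.1), from 17.8 to 60.3 at 6 h (median 26.1) and from 74.6 to 158 at 12 h (median 106). The 12 h libraries stood clear of both earlier times. Abcg8 differed by 1.73 ± 0.15 in log2 units (SE, edgeR adjusted p = 2.95e-10), and 1.75 without library JC004 (adjusted p = 6.51e-10). Abcg5, its obligate partner, rose from between 36.0 and 59.6 CPM to between 57.03 and 124 (0.98 ± 0.16, edgeR adjusted p = 2.59e-05). Abcb11, the bile salt export pump, rose from between 267 and 526 CPM to between 496 and 876 (0.87 ± 0.15, edgeR adjusted p = 4.25e-05). Nr1h4, the bile acid receptor FXR, was the 1 gene of the list that fell (-0.76 ± 0.13, edgeR adjusted p = 5.86e-05). These 3 calls held without library JC004. Abcg5 and Abcg8 lie on opposite strands of chromosome 17 and their annotated spans overlap (chr17:84658234-84683011 and chr17:84676302-84700333), so reads in the overlap cannot be assigned without strand. Cyp7a1, the rate-limiting enzyme of bile acid synthesis, ranged from 50.5 to 194 CPM at 3 h and from 20.7 to 179.7 at 12 h and missed the threshold at -0.76 ± 0.35 (SE, edgeR adjusted p = 0.111; -0.82 and 0.0881 without library JC004).

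Calls among genes of fatty acid oxidation went in both directions, at a share near the 25.6% of all genes. Of 26 tested oxidation and ketogenesis genes, 2 rose and 6 fell, with a median log2 fold change of -0.10; without library JC004 2 rose and 5 fell, with a median of -0.03. The 2 that rose are known targets of PPARα. Angptl4, a secreted inhibitor of lipoprotein lipase, rose from between 15.1 and 76.8 CPM to between 64.0 and 174 (1.67 ± 0.28, edgeR adjusted p = 3.72e-05). Pdk4, which blocks pyruvate dehydrogenase, rose from between 2.56 and 17.1 CPM to between 11.0 and 36.5 (1.33 ± 0.21, edgeR adjusted p = 1.28e-05). Crat and Cpt2, carnitine acyltransferases, fell by 0.64 and 0.55 on the log2 scale, and these 4 calls held without library JC004. Cpt1a, the gatekeeper of mitochondrial fatty acid import, ranged from 121 to 224 CPM at 3 h (median 179.8), from 56.1 to 132 at 6 h (median 97.5) and from 171 to 306 at 12 h (median 194). The 6 h libraries were the low ones, and 3 h and 12 h overlapped. At 12 h over 3 h the log2 fold change came to 0.29 ± 0.15 (SE, edgeR adjusted p = 0.165; 0.31 and 0.154 without library JC004), against -0.85 ± 0.15 at 6 h over 3 h (adjusted p = 0.00125).

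Glycogen genes were split. Of 12 tested glycogen genes, 3 rose and 2 fell, with a median log2 fold change of 0.17; without library JC004 4 rose and 2 fell, with a median of 0.18. Gys2, liver glycogen synthase, fell from between 162 and 251 CPM to between 78.0 and 137.2 without overlap (-0.78 ± 0.13, edgeR adjusted p = 4.97e-05). Ppp1r3b, the subunit that brings phosphatase to glycogen, fell with overlap (-0.80 ± 0.19, edgeR adjusted p = 0.00155). Phka2, the liver regulatory subunit of phosphorylase kinase, rose from between 10.2 and 17.6 CPM to between 26.5 and 46.1 without overlap (1.34 ± 0.16, edgeR adjusted p = 1.57e-07). These 3 calls held without library JC004. Ppp1r3g, a glycogen-targeting subunit of fasted liver, was near the limit of detection at 0.0419 to 0.659 CPM at 3 h and 0.243 to 1.86 at 12 h. Its log2 fold change of 1.94 ± 0.66 (SE, edgeR adjusted p = 0.0283; 2.30 and 0.0132 without library JC004) lost its call when C57BL6/J replicate 2 or 4 at 12 h was left out, with adjusted p up to 0.0621 and values down to 1.72. Ppp1r3g and Ppp1r3c (0.78 ± 0.25, edgeR adjusted p = 0.0179) also lost their calls with the muscle sum in the model. Without library JC004 the value of Ppp1r3c was 0.71 (edgeR adjusted p = 0.031).

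Most of the folding genes of the endoplasmic reticulum fell between 3 h and 12 h, while others, among them the chaperones Calr, Canx and Pdia3, named after their values were seen, did not pass the test. Of 20 tested folding and unfolded protein response genes, 0 rose and 14 fell, with a median log2 fold change of -0.99; without library JC004 the counts were the same and the median was -0.97. At 6 h over 3 h, 3 rose and 0 fell (background of 0.859% and 1.49% over all genes), and at 12 h over 6 h 0 rose and 18 fell (background of 9.4% and 10.5%). These comparisons share libraries. Hspa5, the ATP-driven chaperone BiP, ranged from 1303 to 4032 CPM at 3 h (median 2394), from 1158 to 3469 at 6 h (median 2555) and from 252 to 636 at 12 h (median 382). All 12 h libraries were below the lowest library of either earlier time. Hspa5 differed by -2.50 ± 0.22 in log2 units (SE, edgeR adjusted p = 3.65e-10), and -2.39 without library JC004 (adjusted p = 6.51e-10). Creld2, a secreted folding factor induced with BiP, ranged from 224 to 492 CPM at 3 h (median 389), from 176 to 558 at 6 h (median 448) and from 22.4 to 54.5 at 12 h (median 23.5). The 12 h levels were again separate from the rest. Creld2 differed by -3.68 ± 0.22 in log2 units (SE, edgeR adjusted p = 3.54e-13), and -3.64 without library JC004 (adjusted p = 1.35e-12). Syvn1, the ubiquitin ligase of protein degradation from this compartment, had medians of 497, 317 and 56.3 CPM and a log2 fold change of -3.32 ± 0.29 (SE, edgeR adjusted p = 7.55e-10; -3.38 and 6.92e-10 without library JC004). Manf, a trophic factor that leaves stressed cells, fell from between 264 and 617 CPM to between 42.9 and 140.4 (-2.41 ± 0.20, edgeR adjusted p = 1.32e-10) and kept its call without library JC004.

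Genes of the ATF4 and CHOP branch of the stress response moved in both directions. Of 16 tested ATF4 and CHOP genes, 3 rose and 5 fell, with a median log2 fold change of -0.14; without library JC004 the counts were the same and the median was -0.05. Ddit3, which encodes CHOP, stepped down, with 23.5 to 85.0 CPM at 3 h, 12.6 to 32.4 at 6 h and 5.08 to 11.5 at 12 h, with a log2 fold change of -2.64 ± 0.22 (SE, edgeR adjusted p = 3.08e-10; -2.59 and 1.14e-09 without library JC004). Atf3, an ATF4 target, went from between 4.39 and 42.9 CPM to between 0.551 and 1.91, the highest value being that of library JC004, with a log2 fold change of -3.37 ± 0.39 (SE, edgeR adjusted p = 9.76e-08; -2.82 and 3.68e-09 without library JC004). Atf4 itself fell by 0.66 on the log2 scale (edgeR adjusted p = 4.77e-05) and was already at its 12 h level at 6 h, with medians of 197, 121 and 123 CPM. Trib3, a pseudokinase that restrains ATF4 and insulin signalling, rose from between 1.43 and 6.44 CPM to between 4.49 and 16.0 with overlap (1.68 ± 0.26, edgeR adjusted p = 1.1e-05). Both of these calls held without library JC004.

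Cytosolic and mitochondrial heat shock chaperones had the lowest median of the 26 lists. Of 15 tested heat shock chaperones, 0 rose and 14 fell, with a median log2 fold change of -2.23; without library JC004 the counts were the same and the median was -1.89. Hspa1b, the inducible HSP70, ranged from 43.7 to 473 CPM at 3 h (median 98.0), from 10.5 to 52.2 at 6 h (median 22.8) and from 1.97 to 5.36 at 12 h (median 3.99). The medians were lower at each later time and 12 h did not overlap 3 h. Hspa1b differed by -5.06 ± 0.44 in log2 units (SE, edgeR adjusted p = 1.06e-09), and -4.65 without library JC004 (adjusted p = 3.23e-11). Hspa1b and Hspa1a are near-identical copies, so the split of reads between them is uncertain. Hspa8, the constitutive HSP70, ranged from 1832 to 4312 CPM at 3 h (median 2474), from 666 to 3530.5 at 6 h (median 1874) and from 152 to 472 at 12 h (median 270.2). Again every 12 h library was below every other. Hspa8 differed by -3.32 ± 0.18 in log2 units (SE, edgeR adjusted p = 5.36e-14), and -3.27 without library JC004 (adjusted p = 2.75e-13). Hsph1, an exchange factor for HSP70, fell from between 115 and 325 CPM to between 12.7 and 22.2, with a log2 fold change of -3.56 ± 0.18 (SE, edgeR adjusted p = 5.96e-15; -3.44 and 4.85e-15 without library JC004). The HSP70 partners Dnaja1 (-2.31 ± 0.16, edgeR adjusted p = 3.59e-12) and Bag3 (-2.23 ± 0.15, edgeR adjusted p = 5.42e-12) fell as well, and kept their calls without library JC004.

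Cirbp, the cold-inducible RNA-binding protein, moved opposite to them. Cirbp ranged from 9.06 to 24.7 CPM at 3 h (median 16.2), from 8.80 to 30.3 at 6 h (median 20.1) and from 42.9 to 80.5 at 12 h (median 61.3). The 12 h libraries were all above the other 2 times. Cirbp differed by 1.88 ± 0.18 in log2 units (SE, edgeR adjusted p = 1.87e-09), and 1.82 without library JC004 (adjusted p = 3.68e-09). Of 8 tested cold-inducible RNA binders, splicing factors and CLK kinases, 3 rose and 0 fell, with a median log2 fold change of 0.09; without library JC004 the counts were the same and the median was 0.04. Srsf5, a splicing factor, rose by 0.63 on the log2 scale (edgeR adjusted p = 0.00101), also without library JC004. Rbm3, the other cold-induced binder, had medians of 40.0 CPM at 3 h and 30.1 at 12 h and missed the threshold with a log2 fold change of -0.45 ± 0.18 (SE, edgeR adjusted p = 0.0566; -0.41 and 0.101 without library JC004). It passed on leaving out BALB/c replicate 3 or C57BL6/J replicate 4 at 3 h, or BALB/c replicate 2 or 5 at 12 h, with values down to -0.51.

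Promoters were searched for short motifs, in RefSeq windows (GRCm38.p6) from 250 bases before to 50 bases after the start of 11429 tested genes, on both strands. Some genes have several annotated starts, each with a window, and a gene is counted once if any of its windows holds the motif. The endoplasmic reticulum stress element, CCAAT and CCACG with 9 bases between them, lay in a window of 9 of the 18 folding genes that have one (50%) and of 20 of all these genes (0.175%). The heat shock element core, GAANNTTC, lay in a window of 9 of 12 heat shock genes (75%) and of 7.08% of all genes. The E-box CACGTG lay in a window of 5 of 17 clock genes (29.4%; 11.2% of all), and the D-box TTATGTAA in that of 1 (5.88%; 0.77% of all). The sterol element TCACCCCAC lay in a window of 1 of 17 genes of the cholesterol list (5.88%; 0.709% of all). Of the folding genes with the stress element, Creld2, Hspa5, Syvn1 and Hsp90b1 were called lower at 12 h. Dnajc3, Derl3, Pdia6, Canx and Calr also hold it and were not called. Dnajb11, Herpud1, Dnajb9, Sel1l, Sdf2l1, Pdia4, Edem1 and Xbp1 were called lower and held no exact match in their windows. Variant forms of the element and sites outside the windows were not searched. The part of the element in the fall was not tested. A match describes the letters only and is not a binding site. The promoters below belong to genes named in the text that were picked for holding one of these motifs. Each is shown from 250 bases to 1 base before the start, 5′ to 3′ on the gene's strand. The motif is in capitals and the bases between its fixed letters are in lower case. In Creld2 (chr15:88819396-88819645, plus strand) the stress element lies as its reverse complement, 126 bases before the start; in Hspa5 (chr2:34771840-34772089, plus strand) it lies 65 bases before the start. In Hspa1b (chr17:34959239-34959488, minus strand) and Dnaja1 (chr4:40722218-40722467, plus strand) the heat shock core lies 104 and 124 bases before the start, the 2 windows of other Dnaja1 starts holding none of the motifs. In Per3 (chr4:151044666-151044915, minus strand) the D-box occurs 205 and 158 bases before it.
Creld2: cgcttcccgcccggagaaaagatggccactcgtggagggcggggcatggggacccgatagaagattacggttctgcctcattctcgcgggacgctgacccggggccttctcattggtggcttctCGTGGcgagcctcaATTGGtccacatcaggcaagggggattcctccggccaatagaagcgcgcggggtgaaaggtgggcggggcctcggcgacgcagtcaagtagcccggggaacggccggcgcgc
Hspa5: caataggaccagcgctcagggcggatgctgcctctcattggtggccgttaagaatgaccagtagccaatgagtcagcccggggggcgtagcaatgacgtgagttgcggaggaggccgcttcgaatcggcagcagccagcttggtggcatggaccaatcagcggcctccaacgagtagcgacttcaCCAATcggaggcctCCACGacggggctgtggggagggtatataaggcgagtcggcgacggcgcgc
Hspa1b: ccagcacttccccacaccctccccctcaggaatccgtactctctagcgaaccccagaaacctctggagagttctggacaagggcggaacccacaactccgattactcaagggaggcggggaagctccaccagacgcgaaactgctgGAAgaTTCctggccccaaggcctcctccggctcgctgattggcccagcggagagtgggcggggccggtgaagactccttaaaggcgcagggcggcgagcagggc
Dnaja1: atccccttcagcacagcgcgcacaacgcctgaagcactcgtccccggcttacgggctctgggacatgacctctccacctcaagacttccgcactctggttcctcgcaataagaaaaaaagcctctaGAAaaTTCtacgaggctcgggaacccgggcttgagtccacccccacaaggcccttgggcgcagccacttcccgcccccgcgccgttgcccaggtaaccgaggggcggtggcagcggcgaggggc
Per3: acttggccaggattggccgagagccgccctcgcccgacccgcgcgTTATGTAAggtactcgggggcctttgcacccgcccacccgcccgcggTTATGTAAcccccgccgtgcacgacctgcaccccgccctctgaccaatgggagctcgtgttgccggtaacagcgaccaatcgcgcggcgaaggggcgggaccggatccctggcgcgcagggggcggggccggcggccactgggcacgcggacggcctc
Hsph1 and Bag3 hold the heat shock core within the 50 bases after the start, outside the stretch shown for the others.

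Ribosome assembly factors were lower at 12 h, and many had already moved at 6 h. Of 24 tested ribosome biogenesis genes, 0 rose and 21 fell, with a median log2 fold change of -0.70; without library JC004 the counts were the same and the median was -0.65. At 6 h over 3 h, 11 of these 24 fell (background 1.49%), with a median of -0.43, in a comparison that shares the 3 h libraries. Nop2, an rRNA methyltransferase of the large subunit, ranged from 37.3 to 64.2 CPM at 3 h (median 51.1), from 24.5 to 40.8 at 6 h (median 32.3) and from 10.8 to 32.0 at 12 h (median 16.6). The 3 h and 12 h libraries did not overlap. Nop2 differed by -1.56 ± 0.13 in log2 units (SE, edgeR adjusted p = 3.08e-10), and -1.52 without library JC004 (adjusted p = 8.27e-10). Rrp12, which carries pre-ribosomes out of the nucleus, fell from between 22.6 and 35.4 CPM to between 3.64 and 18.2 (-1.83 ± 0.21, edgeR adjusted p = 5.27e-08). Mybbp1a, a nucleolar protein, fell by 1.16 (edgeR adjusted p = 6.93e-09) and Wdr12, of the PeBoW complex, by 1.12 (edgeR adjusted p = 1.02e-08) on the log2 scale. Their calls held without library JC004, and none of the 3 overlapped between 3 h and 12 h. Of 20 tested cytosolic ribosomal protein genes, 0 rose and 3 fell, with a median log2 fold change of -0.23; without library JC004 0 rose and 1 fell, with a median of -0.19. Rpl8 fell by 0.46 on the log2 scale (edgeR adjusted p = 0.00354), also without library JC004; Rpl18 and Rps19 lost their calls without it, and on leaving out any 1 of 12 and 13 other libraries. Of 20 proteasome subunits tested, none was called either way by edgeR, with or without library JC004, and the lowest adjusted p was that of Psmc2, an ATPase of the base, at 0.064 (log2 fold change -0.25 ± 0.10).

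Autophagy genes were split. Of 18 tested autophagy and lysosome genes, 5 rose and 2 fell, with a median log2 fold change of 0.05; without library JC004 the counts were the same and the median was 0.10. Gabarapl1, an ATG8 protein of the autophagosome, rose from between 93.2 and 246 CPM to between 169.6 and 453 (1.09 ± 0.16, edgeR adjusted p = 7.53e-06). Ulk1, the kinase that starts autophagy, rose from between 28.1 and 79.3 CPM to between 60.3 and 95.5 (0.72 ± 0.15, edgeR adjusted p = 0.000571). Wipi1, which binds the forming membrane, rose by 0.81 on the log2 scale (edgeR adjusted p = 0.000496). Bnip3, a receptor for mitophagy, fell from between 150.3 and 395 CPM to between 83.7 and 189 (-1.12 ± 0.19, edgeR adjusted p = 3.78e-05). These 4 calls held without library JC004. Their ranges at 3 h and 12 h overlapped.

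In the lists of amino acid, drug and respiratory metabolism, calls were no more frequent than the 25.6% of all genes. Of 20 tested amino acid catabolism and urea cycle genes, 0 rose and 5 fell, with a median log2 fold change of -0.15; without library JC004 0 rose and 3 fell, with a median of -0.07. Asl, argininosuccinate lyase of the urea cycle, fell from between 562 and 1609.9 CPM to between 295 and 896 (-1.06 ± 0.21, edgeR adjusted p = 0.000357). Gpt, alanine aminotransferase, fell by 0.59 on the log2 scale (edgeR adjusted p = 0.000546); both held without library JC004. Of 16 tested drug-metabolizing P450s and partners, 0 rose and 4 fell, with a median log2 fold change of -0.33; without library JC004 the counts were the same and the median was -0.25. Cyp2a5, a P450 of coumarin and nicotine oxidation, ranged from 1255 to 2455 CPM at 3 h (median 1803), from 576 to 3659 at 6 h (median 1089) and from 180.4 to 438 at 12 h (median 293). The 12 h libraries lay apart from the 3 h libraries. Cyp2a5 differed by -2.53 ± 0.25 in log2 units (SE, edgeR adjusted p = 7.1e-09), and -2.53 without library JC004 (adjusted p = 2.54e-08). Cyp2a5 and Cyp2a4 are close copies whose reads could be split. Alas1, the first enzyme of heme synthesis, fell from between 437 and 1939 CPM to between 29.6 and 496 (-2.59 ± 0.43, edgeR adjusted p = 4.45e-05). Por, the P450 reductase, fell by 1.23 on the log2 scale (edgeR adjusted p = 8.6e-05), most of it by 6 h, where its median was 166 CPM against 407 at 3 h and 145 at 12 h. Both held without library JC004. Of 15 tested NRF2 targets, 0 rose and 2 fell, with a median log2 fold change of -0.02; without library JC004 1 rose and 1 fell, with a median of 0.06. Gsta2, a glutathione transferase, fell by 0.54 (edgeR adjusted p = 0.00992) and held without library JC004. Hmox1, heme oxygenase, at 93.3 CPM in library JC004, went from -1.096 (adjusted p = 0.027) to -0.48 (adjusted p = 0.138) without it. It also lost its call without C57BL6/J replicate 1, 3 or 5 at 12 h (adjusted p up to 0.0547). Of 18 tested nuclear and mitochondrial genes of oxidative phosphorylation, 0 rose and 3 fell, with a median log2 fold change of -0.18; without library JC004 0 rose and 2 fell, with a median of -0.14. Cycs, cytochrome c, had the smallest p, with a log2 fold change of -0.42 ± 0.09 (SE, edgeR adjusted p = 0.000873; -0.40 and 0.00285 without library JC004).

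Most calls among immediate early genes were lost without library JC004. Of 16 tested immediate early genes, 0 rose and 6 fell, with a median log2 fold change of -0.90; without library JC004 0 rose and 1 fell, with a median of -0.29. Jun, a component of AP-1, was the 1 gene called without library JC004. It ranged from 18.5 to 209 CPM at 3 h, with 209 in library JC004, and from 5.18 to 14.7 at 12 h without overlap. In log2 units the change came to -2.42 ± 0.38 (SE, edgeR adjusted p = 1.9e-05; -1.74 and 3.2e-07 without library JC004). Fos held 0.531 to 113 CPM at 3 h, but no more than 2.12 outside library JC004, and its log2 fold change of -3.21 ± 1.00 (SE, edgeR adjusted p = 0.0187; -0.53 and 0.435 without library JC004) was called only with that library. Of 18 tested interferon response genes, 0 rose and 2 fell, with a median log2 fold change of 0.14; without library JC004 0 rose and 1 fell, with a median of 0.14. Stat2, a transducer of interferon signals, had a log2 fold change of -0.65 ± 0.23 (SE, edgeR adjusted p = 0.0314; -0.73 and 0.0122 without library JC004), and Igtp, an interferon-induced GTPase, one of -0.58 ± 0.20 (SE, edgeR adjusted p = 0.0284; -0.53 and 0.0559 without library JC004). Stat2 lost its call on leaving out any 1 of 8 libraries and Igtp on leaving out any 1 of 6 others than library JC004, with adjusted p up to 0.104 and 0.0627.

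Acute phase proteins had the highest median of the lists. Of 16 tested acute phase genes, 7 rose and 0 fell, with a median log2 fold change of 0.75; without library JC004 the counts were the same and the median was 0.84. The fibrinogen chains rose together. Fgg rose from between 1254 and 2976 CPM to between 3160.2 and 6868 (1.02 ± 0.22, edgeR adjusted p = 0.00071). Fgb rose from between 1666 and 3598 CPM to between 3678 and 7877 (0.90 ± 0.20, edgeR adjusted p = 0.000966), both without overlap. Fga rose by 1.00 on the log2 scale with overlap (edgeR adjusted p = 0.00889). The 3 calls held without library JC004. The serum amyloid genes were uneven. Saa2 ranged from 2.93 to 193 CPM at 3 h (median 7.31), from 3.92 to 4538 at 6 h (median 16.5) and from 2.89 to 10248 at 12 h (median 69.7). Its highest values were in C57BL6/J replicate 1 at 12 h (10248 CPM) and C57BL6/J replicate 1 at 6 h (4538), and the lowest 12 h library was under the lowest 3 h library. Saa2 differed by 4.45 ± 1.29 in log2 units (SE, edgeR adjusted p = 0.0113), and 4.76 without library JC004 (adjusted p = 0.0152). It was 3.51 (adjusted p = 0.0712) without BALB/c replicate 1 at 12 h. The call of Saa1 (3.11 ± 1.07, edgeR adjusted p = 0.0329; 3.39 and 0.0367 without library JC004) was lost without C57BL6/J replicate 1 or BALB/c replicate 1 at 12 h, or without any of C57BL6/J replicates 2 to 5 at 3 h, with adjusted p up to 0.162 and values down to 2.31. Saa1 and Saa2 are close copies, and reads could be split between them.

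Growth and cytoskeletal genes held some of the clearest single changes. Of 12 tested genes of the growth hormone, STAT5 and IGF1 axis, 2 rose and 3 fell, with a median log2 fold change of -0.16; without library JC004 3 rose and 3 fell, with a median of -0.12. Igfals, which carries IGF1 in blood, fell from between 154 and 276 CPM to between 58.9 and 106, and Stat5b, which relays growth hormone, rose from between 30.9 and 44.8 CPM to between 60.3 and 117, in both cases without overlap. Their log2 fold changes were -1.39 ± 0.13 (SE, edgeR adjusted p = 1.04e-09; -1.34 and 5.12e-09 without library JC004) for Igfals and 1.08 ± 0.12 (SE, edgeR adjusted p = 3.03e-08; 1.11 and 5.62e-08 without library JC004) for Stat5b. Of 8 tested growth arrest genes, 2 rose and 2 fell, with a median log2 fold change of -0.10; without library JC004 the counts were the same and the median was -0.09. Cdkn1a, which encodes p21, had its highest median at 6 h, with 11.6, 37.4 and 21.2 CPM at the 3 times. Btg1, an antiproliferative factor, rose from between 14.3 and 88.6 CPM to between 61.9 and 106 (1.15 ± 0.22, edgeR adjusted p = 0.00023; 1.46 without library JC004). Cdkn1a rose at 12 h over 3 h by 1.23 ± 0.29 on the log2 scale (edgeR adjusted p = 0.00197; 1.498 and 5.92e-05 without library JC004). Of 11 tested actin and tubulin genes, 1 rose and 7 fell, with a median log2 fold change of -0.34; without library JC004 1 rose and 5 fell, with a median of -0.31. Actg1, cytoplasmic gamma-actin, ranged from 162 to 420.5 CPM at 3 h (median 265), from 77.1 to 198 at 6 h (median 141) and from 40.5 to 95.3 at 12 h (median 66.6). The level stepped down at each time without overlap of 3 h and 12 h. Actg1 differed by -2.11 ± 0.19 in log2 units (SE, edgeR adjusted p = 5.11e-10), and -2.02 without library JC004 (adjusted p = 9.96e-10). Actb, beta-actin, fell by 0.77 (edgeR adjusted p = 5.93e-07) and Tuba1c, an alpha-tubulin, by 1.25 (edgeR adjusted p = 1.9e-08) on the log2 scale, without overlap and also without library JC004.

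The 10 highest and 10 lowest changes among called genes of at least 5 CPM, outside the markers of other tissues, brought in genes from no list. Tcp11l2 rose from between 3.36 and 5.63 CPM to between 20.0 and 41.8 with a log2 fold change of 2.69 ± 0.17 (SE, edgeR adjusted p = 5.55e-13; 2.68 and 2.13e-12 without library JC004), the smallest p of the 10 highest. Klhl24, a ubiquitin ligase adaptor, rose from between 4.29 and 11.5 CPM to between 32.1 and 92.6 (2.59 ± 0.25, edgeR adjusted p = 4.76e-09). Rnf125, a ubiquitin ligase, rose from between 2.13 and 17.0 CPM to between 28.6 and 221 (3.295 ± 0.48, edgeR adjusted p = 6.73e-06), both without overlap. Elovl3, an elongase of very long chains, rose from between 15.9 and 230.1 CPM to between 232 and 772 (2.77 ± 0.51, edgeR adjusted p = 0.000152). Its neighbour Pitx3 (chr19:46135685-46148326), a homeobox gene that lies beside Elovl3 (chr19:46131897-46135307) on the other strand, rose with it (2.79 ± 0.66, edgeR adjusted p = 0.0022), where reads running past an end cannot be assigned without strand. Camk1d, a calcium-dependent kinase, rose from between 2.07 and 14.0 CPM to between 4.47 and 144 with overlap (2.57 ± 0.27, edgeR adjusted p = 2.49e-08). All of these kept their calls without library JC004.

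Of the 10 lowest, Ccrn4l, the circadian phosphatase nocturnin, fell from between 27.2 and 144 CPM to between 1.57 and 18.2 with a log2 fold change of -3.57 ± 0.41 (SE, edgeR adjusted p = 1.39e-07; -3.50 and 3.25e-07 without library JC004). Tnnc1, the troponin C of slow and cardiac muscle, fell from between 4.86 and 22.2 CPM to between 0.389 and 1.57 (-3.60 ± 0.32, edgeR adjusted p = 5.3e-10); it was 6.12 CPM in library JC004 and 10.5 in BALB/c replicate 1 at 3 h, the libraries with the lowest muscle levels. The call of Tnnc1 held without library JC004. Cxcl10, a chemokine, had -4.78 ± 1.23 (SE, edgeR adjusted p = 0.00489; -1.02 and 0.0996 without library JC004), with 433 CPM in library JC004 and at most 2.77 in the other 3 h libraries. Also among the 10 lowest were Hspa1b, Per2, Aacs, Creld2, Per3 and Hsph1, described above.

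The 6 h libraries were nearer to 3 h than to 12 h. Between 6 h and 3 h, 364 genes (2.35%) were called, 133 higher and 231 lower, and between 12 h and 6 h 3078 (19.9%), 1456 higher and 1622 lower; these comparisons share libraries with each other and with 12 h against 3 h. Without library JC004, 303 genes (1.97%) were called at 6 h over 3 h, 129 higher and 174 lower. The share of higher calls was 36.5% here, 42.6% without library JC004, 49.7% with DESeq2, which called 684 genes, and 48.8% in a model of all 26 groups, which called 879. The median gene called higher at 12 h had covered 25.9% of its change by 6 h, and the median gene called lower 28.5%. Of the genes called higher, 21.3% lay beyond the 3 h level at 6 h, away from 12 h, and 2.36% beyond the 12 h level. Of those called lower, these shares were 21.7% and 2.62%. Without library JC004 the medians were 24.9% for higher and 26.1% for lower genes. The 2 directions differed more among genes called with at least a 2-fold change. There the medians were 35.7% for higher and 11.1% for lower genes, and 35.6% of the lower ones lay beyond the 3 h level. Some of the lists are given here as a description. By 6 h the median called member had covered 53.2% of its change in ribosome biogenesis, 39.3% in gluconeogenesis and 18.1% in the clock. The share was 18.0% in fatty acid synthesis, 11.0% in cholesterol synthesis and 10.9% among heat shock chaperones. It was at -6.1% in the folding list, on the far side of the 3 h level. Shares above that of ribosome biogenesis occurred in lists with few called members. Among them were oxidative phosphorylation (87.2%, 3 called), growth arrest (71.4%, 4 called), amino acid catabolism (67.5%, 5 called) and P450s (66.8%, 4 called). Called members spread widely within lists, from -96.3% to 53.3% in cholesterol synthesis and from 4.10% to 148% in ribosome biogenesis.

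**Figure D4:**
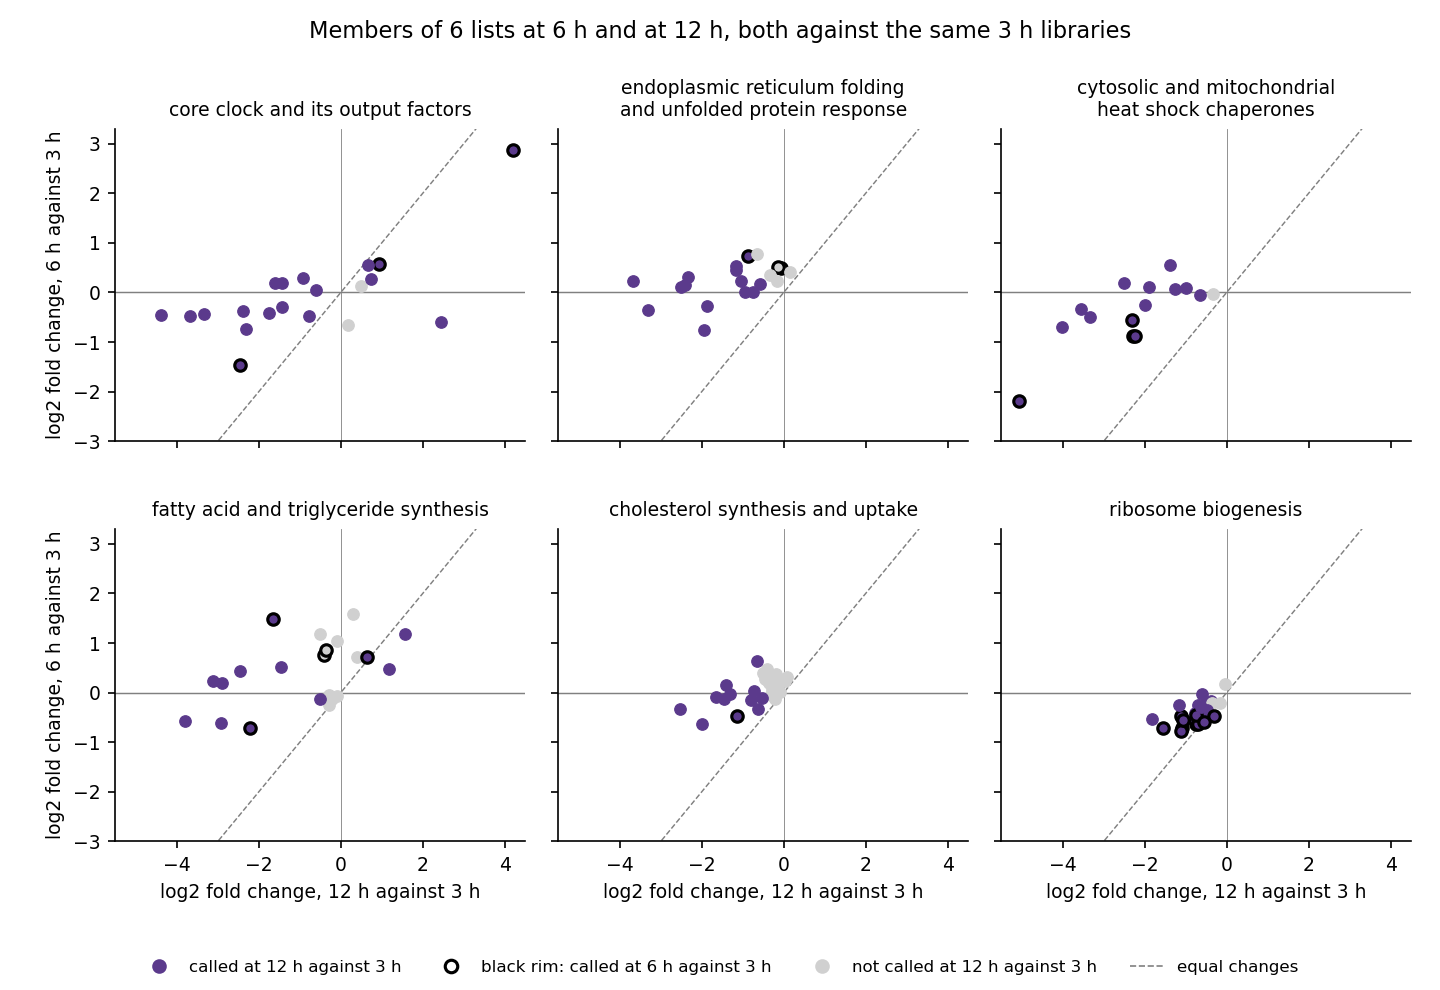
Log2 fold change at 6 h over 3 h (vertical) against that at 12 h over 3 h (horizontal) for the members of 6 gene lists, one panel per list, each point a gene. Both axes share the 3 h libraries; the medians of ribosome biogenesis are -0.70 at 12 h and -0.43 at 6 h, and those of the folding genes -0.99 and 0.23.

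A smaller set had an extreme at 6 h: 64 genes were called both at 6 h over 3 h and, in the opposite direction, at 12 h over 6 h, 30 of them highest and 34 lowest at 6 h. Chrna4, a nicotinic receptor subunit, ranged from 0.906 to 38.0 CPM at 3 h (median 3.23), from 16.6 to 158 at 6 h (median 21.4) and from 1.09 to 21.6 at 12 h (median 10.7). It changed by 2.63 ± 0.50 at 6 h over 3 h (edgeR adjusted p = 0.00425) and -2.49 ± 0.52 at 12 h over 6 h (adjusted p = 0.000984). Pnpla3, a lipid droplet lipase, had medians of 5.57, 14.4 and 2.18 CPM, and Pdia4, a disulfide isomerase of the folding list, 410.3, 691 and 206 CPM. Their log2 fold changes at 6 h over 3 h were 1.48 ± 0.34 for Pnpla3 (edgeR adjusted p = 0.0175) and 0.73 ± 0.16 for Pdia4 (adjusted p = 0.0122). Tacc2, a centrosomal protein, held 27.3 to 194 CPM at 6 h, of which the highest was C57BL6/J replicate 1 and the next 40.4; leaving that library out, its log2 fold change at 6 h over 3 h went from 1.19 to 0.68 and stayed called. Klk1, a tissue kallikrein, was at 129.8 CPM in the 6 h library with kidney markers and 31.3 in that with pancreas markers and under 1 CPM in the other 8. Its call at 6 h over 3 h (5.08 ± 1.31, edgeR adjusted p = 0.035) was lost without library JC004 or without any 1 of 8 others, those 2 among them, with values down to 2.40 and adjusted p up to 0.37. Of those lowest at 6 h, Cpt1a was described above, and Gch1, the first enzyme of tetrahydrobiopterin synthesis, had medians of 78.3, 43.6 and 113 CPM with log2 fold changes of -0.77 ± 0.14 (edgeR adjusted p = 0.00218) and 1.24 ± 0.15 (adjusted p = 2.13e-07). Got1, aspartate aminotransferase, followed the same order with medians of 193, 106 and 219 CPM. Without library JC004 the calls of Chrna4, Pnpla3, Pdia4, Tacc2, Gch1 and Got1 at 6 h over 3 h held, with Got1 at -0.81 (edgeR adjusted p = 0.0405) the nearest to the threshold. The other 2 genes picked by the rule were Mup16, a major urinary protein gene of a family of close copies, and Spc25, whose call at 6 h over 3 h was lost without library JC004 or without any 1 of 12 other libraries, with adjusted p up to 0.0831.

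The question whether the strains differed in this change was put to the interaction of strain and time. Tested within strain, 2785 genes (18%) were called in C57BL6/J (2357, 15.3%, without library JC004) and 1315 (8.49%) in BALB/c, counts that do not themselves show a difference. The interaction called 0 genes (0%) with edgeR, with 774 at an unadjusted p under 0.05 (672 without library JC004); DESeq2 called 49. The smallest adjusted p, 0.0693, belonged to Nabp1, a single-stranded DNA binding protein, with log2 fold changes of -1.89 ± 0.19 in C57BL6/J and -0.44 ± 0.20 in BALB/c and a difference of 1.45 ± 0.27. Nabp1 passed without BALB/c replicate 3 or 5 at 12 h. Fam129b and Gtf2ird1 passed without C57BL6/J replicate 4 at 12 h, and 1600002H07Rik without C57BL6/J replicate 3 or BALB/c replicate 3 at 12 h. With all libraries, next came, each with an adjusted p of 0.133, Fam129b (1.64 in C57BL6/J and 0.21 in BALB/c), Ppard, the nuclear receptor PPARδ (1.31 and -0.46), 1600002H07Rik (-0.997 and 0.68) and Gtf2ird1 (0.83 and 0.02). The main members moved alike in direction: Per2 by -4.48 in C57BL6/J and -4.25 in BALB/c, Hspa5 by -2.59 and -2.40, and Fasn by -3.02 and -2.80.

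The change from 3 h to 12 h with glucose was also set against that with the other drinks, in a fit of all libraries from 3 h on over 16835 genes, with CPM scaled over all of them. In that fit 4927 genes (29.3%) were called with glucose, 5251 (31.2%) with water, 4689 (27.9%) with sucrose and 4649 (27.6%) with fructose. The test of the difference in change called 1 gene for glucose against water (0.00594%), 6 against sucrose (0.0356%) and 30 against fructose (0.178%), with 880, 1018 and 1393 genes at an unadjusted p under 0.05. Without library JC004 these were 0 (DESeq2 called 30 with it; 852 at an unadjusted p under 0.05 without), 2 (0.0119%) and 34 (0.202%). The 3 differences share the glucose libraries.

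Fbxl20, an F-box protein of a ubiquitin ligase, had a log2 fold change of 2.12 with glucose, against 2.49 with water, 1.22 with sucrose and 0.92 with fructose. Its level at 3 h was 5.66 to 12.7 CPM with glucose (median 9.85), 6.58 to 8.88 with water, 14.5 to 23.3 with sucrose and 15.2 to 32.5 with fructose. The medians at 12 h were 43.3 with glucose, 43.3 for water, 41.2 with sucrose and 41.9 with fructose. The glucose libraries at 3 h thus lay below every sucrose and fructose library. The glucose change exceeded that with fructose by 1.20 ± 0.17 (edgeR adjusted p = 5.69e-06; 1.22 and 6.93e-06 without library JC004), and that with sucrose by 0.90 ± 0.17 (edgeR adjusted p = 0.00782; 0.91 and 0.013 without library JC004). The call of Fbxl20 against sucrose was lost on leaving out replicate number 1, 2, 3 or 5 from all groups, with adjusted p up to 0.206; that against fructose was kept.

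Actg1 changed by -2.08 with glucose, against -2.36 with water, -0.53 with sucrose and -0.30 with fructose on the log2 scale. At 3 h it held 162 to 413 CPM with glucose, 195 to 709 with water, 59.9 to 196 with sucrose and 55.3 to 121 with fructose, and at 12 h its medians were 67.1, 69.7, 74.7 and 70.5 CPM. Every glucose library at 3 h exceeded every fructose library. The difference in change was -1.78 ± 0.30 (edgeR adjusted p = 0.000254; -1.72 and 0.000778 without library JC004) against fructose and -1.55 ± 0.30 (edgeR adjusted p = 0.00782; -1.49 and 0.0229 without library JC004) against sucrose. For Actg1, too, the call against sucrose was lost on leaving out replicate number 1, 2, 3 or 5 from all groups, with adjusted p up to 0.592, and that against fructose was kept. Wnt5b, a secreted Wnt ligand, changed by -1.53 with glucose, against -1.50 with water, -0.61 with sucrose and -0.24 with fructose, with a difference of -1.29 ± 0.20 (edgeR adjusted p = 2.81e-05; -1.28 and 6.64e-05 without library JC004) against fructose. Rbm33, an RNA-binding protein, changed by 0.90 with glucose, against 1.097 with water, 0.32 with sucrose and -0.02 with fructose, with a difference of 0.92 ± 0.16 (edgeR adjusted p = 0.000768; 0.94 and 0.000778 without library JC004) against fructose. Ulk1 changed by 0.74 with glucose, against 1.76 with water, -0.11 with sucrose and -0.28 with fructose, with a difference of 1.02 ± 0.24 (edgeR adjusted p = 0.037; 1.11 and 0.0236 without library JC004) against fructose and -1.02 ± 0.24 (edgeR adjusted p = 0.133; -0.94 and 0.338 without library JC004) against water. Fbxl20, Actg1, Wnt5b and Rbm33 were picked for their difference from fructose. Their glucose values lay nearer to those with water than to those with fructose, which this selection favours and which is not shown for other genes. Ulk1, picked for its difference from water, differed by 1.02 from fructose and by -1.02 from water.

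**Figure D5:**
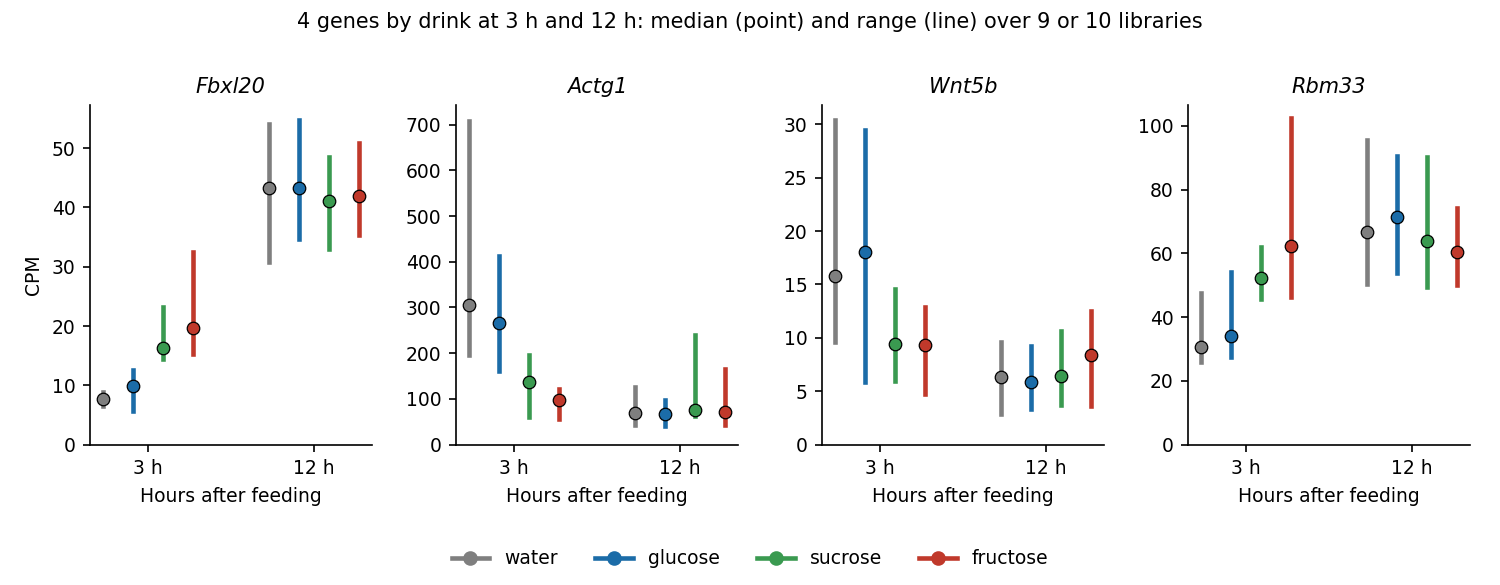
CPM of Fbxl20, Actg1, Wnt5b and Rbm33 at 3 and 12 h for the 4 drinks, with points at the median and bars from the lowest to the highest library. The genes were picked for their difference from fructose. Their glucose medians at 3 h lie near those with water and apart from those with sucrose and fructose. The 4 medians at 12 h lie close together for Fbxl20 and Actg1 and run from 60.5 CPM (fructose) to 71.4 (glucose) for Rbm33. For Wnt5b the 12 h median is 8.36 CPM with fructose, against 5.85 with glucose, 6.32 with water and 6.40 with sucrose.

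Other calls between the drinks were lost without library JC004. Rgs16, a regulator of G protein signalling, had 3 h medians of 9.37 CPM with glucose, 2.44 with water, 32.2 with sucrose and 18.1 with fructose, and the glucose libraries spread from 1.099 to 229.9. Its difference from water was -4.23 ± 0.83 (edgeR adjusted p = 0.0298; -3.63 and 0.193 without library JC004), and the call was also lost on leaving out any of the replicate numbers 1 to 4 from all groups. Within the glucose libraries alone, the log2 fold change of Rgs16 was -0.25 ± 0.83 (edgeR adjusted p = 0.865), and 0.70 without library JC004 (adjusted p = 0.486). Egr1, an immediate early factor, changed by -1.56 with glucose, against 3.03 with water, 3.37 with sucrose and 2.43 with fructose, and its difference from sucrose was -4.93 ± 1.03 (edgeR adjusted p = 0.0347; -2.18 and 0.653 without library JC004), a call also lost on leaving out replicate number 1, 2, 3 or 5 from all groups. Igfbp1 did not pass against water, at -4.80 ± 1.04 (edgeR adjusted p = 0.0841; -1.85 and 0.946 without library JC004). Iws1, a transcription elongation factor, differed from sucrose by 0.74 ± 0.16 (edgeR adjusted p = 0.0358; 0.76 and 0.0633 without library JC004). Wnt5b differed by -0.92 ± 0.20 (edgeR adjusted p = 0.0347; -0.91 and 0.0654 without library JC004); both lost their calls without library JC004, and also on leaving out any 1 of the replicate numbers from all groups. Fasn, Pck1, Hspa5 and Per2 passed in none of the 3 differences: against fructose they were -0.04 ± 0.45, 1.62 ± 0.65, 0.07 ± 0.30 and -0.10 ± 0.35, in that order, which does not show that the drinks act alike on them.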

How the data were processed

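The deposited table held whole-number read counts per gene for every library, made by the authors. The submitters' processing notes name CASAVA, STAR 2.5, HTSeq 0.6.1 and DESeq2 and the builds mm10 and GRCm38, without their roles or order. Libraries were made with a NEBNext kit and sequenced on a NovaSeq, per the labels. No label states whether strand was used in counting; reads of overlapping, antisense and closely similar genes may be shared.

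Counts of the 29 glucose libraries were fitted with edgeR 4.0.16 in R 4.3.3: TMM factors, genes kept by filterByExpr, a robust quasi-likelihood fit with strain and time as terms, and Benjamini-Hochberg adjustment over all genes tested. A gene was called at an adjusted p under 0.05. Standard errors were set so that the squared ratio of log2 fold change to error equals the test's F. The difference between strains was tested as a strain by time interaction, and that between drinks in a model with a mean for each of 24 groups of strain, drink and time. Alternatives were DESeq2 1.42.0, other size factors, no filter, leaving out libraries, and added terms. Steps were tested on simulated counts. Library sums were compared by exact permutation of the time labels within strains. No pair of libraries within a glucose group of the same strain and time held identical counts.

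Genes named in the text were 25 panel genes, the 10 highest and 10 lowest called log2 fold changes (mean of at least 5 CPM, same sign in both strains, no marker of another tissue), up to 4 members of smallest p in each of 26 lists, 5 per interaction, and 5 highest and 5 lowest at 6 h; others are marked where they occur. The members, the lists and the 14 marker lists were chosen with earlier results of these data known. Promoters came from RefSeq tables of GRCm38.p6, in which 11429 of 15486 tested genes were matched, and gene positions from the deposited table. Deposited FPKM tables were not used. Some genes that the rule picked are not reported here.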

Additional observations from a re-analysis of the deposited data

Results flagged for a closer look

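Within groups of 4 or 5 libraries, 1 library was called apart when its gap to the nearest other, as a share of the group's range, exceeded Dixon's critical value at the 95% level, on the log2 scale for levels. The panel genes, library measures and position were checked in the same glucose groups, 198 checks in all, of which 17 passed. Chance alone gives about 1 in 20 for a single check, but checks on the same libraries are not independent. Among genes, Igfbp1 in library JC004 had 726 CPM against 1.01 to 4.35 in the rest of its group. Arntl had 17.3 CPM in C57BL6/J replicate 5 at 6 h against 26.7 to 27.8, and 37.4 in BALB/c replicate 4 at 6 h against 24.8 to 26.6. Rgs16 had 2.89 CPM in C57BL6/J replicate 1 at 6 h against 14.1 to 23.1, and 3.65 in C57BL6/J replicate 1 at 12 h against 13.9 to 23.7. Fgf21 in the latter library had 7.49 CPM against 1.18 to 1.72. Cpt1a had 253 CPM in C57BL6/J replicate 2 at 12 h against 180.4 to 194, and Hspa5 had 1158 in C57BL6/J replicate 4 at 6 h against 2532 to 3469.

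Among library measures, muscle markers summed to 47.7 CPM in BALB/c replicate 1 at 3 h against 400.2 to 864, and to 52.0 in BALB/c replicate 4 at 6 h against 444 to 747. The same libraries stood apart in position, at 0.458 against -0.038 to 0.060 and at 0.462 against -0.010 to 0.097. Kidney markers reached 1646 CPM in BALB/c replicate 3 at 6 h against at most 0.299, pancreas markers 2.70 in BALB/c replicate 1 at 12 h against 0.128 to 0.166, and adrenal markers 2.52 in C57BL6/J replicate 4 at 12 h against 2.92 to 3.00. Mitochondrial counts took 14.1% in C57BL6/J replicate 5 at 6 h against 5.34% to 6.71%. The total count of BALB/c replicate 2 at 12 h was 31150748 against 22313669 to 23355470.

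The change from 3 h to 12 h differed between glucose and another drink by the edgeR test of the difference in the comparisons that follow. For Rgs16 the difference from water was -4.23 on the log2 scale. From sucrose the differences were -1.55 for Actg1, -4.93 for Egr1, 0.90 for Fbxl20, -0.92 for Wnt5b and 0.74 for Iws1. From fructose they were -1.78 for Actg1, 1.20 for Fbxl20, -1.29 for Wnt5b, 0.92 for Rbm33 and -1.18 for A930038B10Rik, whose call was lost without replicate number 2 or 4 in all groups. Ulk1, named for its difference from water, also passed against fructose at 1.02. These share the glucose libraries.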

How the results depend on the processing

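The number of genes called at 12 h over 3 h was 3577 to 3876 when each library other than JC004 was left out in turn, and 3379 to 4675 over the other alternatives except the restriction to libraries whose names lack the suffix a, which kept fewer samples and called 2587. At 6 h over 3 h, 684 genes were called by DESeq2, 138 without suffixed libraries, 879 in a model of all 26 groups, 226 without C57BL6/J replicate 2 at 3 h and 499 without C57BL6/J replicate 5 at 6 h; at 12 h over 6 h, 2001 were called without suffixed libraries. Other counts of these 2 comparisons stayed within 1.5 times.

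The strain by time interaction, at 0 genes, had 49 by DESeq2, 21 in the model of all groups, 1 with the replicate block, 1 without C57BL6/J replicate 5 at 6 h, and 0 to 4 when each library was left out. For glucose against water the count of 1 became 0 without library JC004, without a filter, with the replicate block and without suffixed libraries, 30 by DESeq2, and 0 to 6 when each replicate number was left out. Against sucrose the count of 6 became 2 without library JC004, 1 without suffixed libraries, 14 by DESeq2 and 0 to 5 when numbers were left out. Against fructose the count of 30 became 17 without a filter, 74 with the replicate block, 63 with the suffix as a term, 3 without suffixed libraries, 139 by DESeq2 and 7 to 32 when numbers were left out. The cause of these shifts was not tested beyond the smaller number of libraries in the settings that leave some out.

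Deviations of same-numbered libraries at 3 h and 12 h correlated at -0.12 to 0.25 over 9 pairs, 3 of them best with their own number. So few pairs cannot show whether replicate numbers pair libraries. With the replicate block 4178 genes were called at 12 h over 3 h, against 3969 in the main fit. Among the genes reported, directions reversed only where the test had not been passed: Igfbp1 at -0.24 without suffixed libraries and -0.0328 to 0.53 when each other library was left out; Rgs16 at 0.70 without library JC004, 0.26 with the replicate block, 0.0723 with 3 h and 12 h libraries only, 0.16 in the model of all groups and -0.83 to 0.0223 when libraries were left out; and the Igfbp1 difference from water at -5.37 to 0.0679. Of the named genes' tests, 17 lost and 2 gained a call without library JC004, 13 gained one by DESeq2, 34 lost one without suffixed libraries and 13 lost one without the filter. The settings without C57BL6/J replicate 5 at 6 h, with the muscle sum and with the axes free of marker genes were chosen after seeing the data. Genes under about 1 CPM, such as Ppp1r3g, rest on few counts.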
